A study of Mus musculus with 4 samples.

Results

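Itga4 encodes the α4 integrin subunit (CD49d), and the 9 genes described here are the leukocyte and macrophage integrin subunits Itga4, Itga6, Itgal, Itgam, Itgav, Itgb1, Itgb2, Itgb5 and Itgb7. They were chosen by symbol, with earlier results of these data known. All 9 were found among the 15690 genes of the series, and they belong to 23 integrin subunit genes with a row. Counts come from single myeloid cells sorted into plates of 384 wells from the brains of Balb/C athymic nude mice (CAnN.Cg-Foxn1nu/Crl, a strain without a thymus) bearing lung cancer brain metastases. There are 4 libraries of 1 plate each. Cells carry the label BMDM, usually read as bone marrow-derived macrophages, or the label microglia, and each sort was plated without and with whole brain radiation therapy (WBRT), given as 5 fractions of 2 Gy with the term d3, whose starting point is not stated. Tumor stage is given as small for both plates without WBRT and as not stratified for both others, so treatment, stage and plate cannot be told apart. No animals, ages or sorting markers are named in the labels. With 1 library in each group no test was made, wells of a plate are not replicates, and every difference below is one between libraries.

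Integrins are receptors of 1 α and 1 β chain that hold cells to other cells and to matrix. The α4 chain pairs with β1 (Itgb1) to bind Vcam1 on endothelium and fibronectin, or with β7 (Itgb7) to bind the addressin of gut vessels. The β2 chain (Itgb2) pairs with αL (Itgal) to bind Icam1 and with αM (Itgam, CD11b) to bind complement fragments and fibrinogen, while αv (Itgav) with β5 (Itgb5) binds vitronectin and α6 (Itga6) with β1 binds laminin. Surface CD49d is used in the field to tell macrophages of blood origin from resident microglia. Whether it set the sorting gates here is not given in the sources used here, and if it did, the Itga4 difference between the sorts would partly restate the gate.

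After filtering, 234 wells of BMDM without WBRT and 262 with WBRT were kept, and 157 wells of microglia without WBRT and 151 with WBRT. Values in series of 4 below keep this order. Median transcripts per well were 4388, 8894, 4789 and 2546, and the median share of spike-in RNA was 30.6% in microglia with WBRT against 6.92% to 7.86% elsewhere. The 10 microglia markers summed to 2617, 2051, 8086 and 9408 CPM (transcripts of a gene scaled to a fixed total of all transcripts in the library), and the 9 measured markers of blood-derived cells to 3709, 3789, 123 and 409 CPM, with Ccr2 and S100a11 at 0 in microglia without WBRT and Plac8 and Ly6c2 at 0 in microglia with WBRT. Each sort had the higher sum of its own markers on both pairs of plates, and BMDM plates were not free of microglia markers. The near-equal blood-derived sums of the BMDM plates hide a shift. With WBRT, 5 of 8 tested markers were called lower (by the rule given below) and 2 higher, where 6.14% and 5.16% of 6551 genes were. Their median log2 ratio was -1.35. The 10 dendritic cell markers summed to 1922, 196, 292 and 337 CPM and the 7 border-associated macrophage markers to 286, 1382, 56.0 and 285 CPM, so the BMDM plates differ in makeup. The microglia plates differ too: the 7 astrocyte markers summed to 32.4, 50.9, 103 and 920 CPM. Of these, 6 of 6 tested were called higher in microglia with WBRT than without. This gap sat in few wells: an astrocyte marker UMI was in 27.4% of microglia wells without WBRT and 31.8% with WBRT. Of 597 counts with WBRT, the clusters described below as led by Slc40a1, microglia-like and led by Adamts1 held 18, 18 and 34. They held 49, 61 and 32 of the 151 wells. Ranges in parentheses are 95% intervals of counting error alone. For levels and ratios they take each transcript as an independent draw, which transcripts from 1 well are not, and for shares they take each well as one.

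Itga4 (chr2:79255426-79333114, GRCm38.p6) and Itgam (chr7:128062640-128118491) differed between the sorts in opposite directions, so the 250 bases before the start of each are shown. The sequences are RefSeq's for GRCm38.p6, 5′ to 3′ on the plus strand, which is the coding strand of both, and capitals mark GAGGAA, a core of sites of the myeloid factor PU.1, and TGTGGT, a core of RUNX sites, searched on both strands.
Itga4, chr2:79255176-79255425: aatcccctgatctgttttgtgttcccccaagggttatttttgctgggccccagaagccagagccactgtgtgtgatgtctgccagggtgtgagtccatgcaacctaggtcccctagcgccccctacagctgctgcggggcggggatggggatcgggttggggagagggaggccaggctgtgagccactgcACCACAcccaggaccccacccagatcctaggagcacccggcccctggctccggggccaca
Itgam, chr7:128062390-128062639: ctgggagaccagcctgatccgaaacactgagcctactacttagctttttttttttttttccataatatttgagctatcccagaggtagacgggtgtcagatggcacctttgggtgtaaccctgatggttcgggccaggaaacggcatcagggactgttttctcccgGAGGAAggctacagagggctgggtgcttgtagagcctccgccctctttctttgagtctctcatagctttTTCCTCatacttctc
The Itga4 window holds 1 RUNX match and 0 PU.1 matches, and the Itgam window holds 2 PU.1 matches and 0 RUNX matches. Of 32851 promoter windows of this length, 23.3% hold GAGGAA and 14.0% hold TGTGGT, and no match of one overlaps a match of the other here. RefSeq's table had windows for 6 of the 9 genes, and matches did not follow the sort in them: Itgb5, like Itgam at its higher level in microglia, had 0 PU.1 matches, Itgb7, like Itga4 higher in BMDM, had 0 RUNX matches, Itgav had 2 PU.1 matches and Itgb1 had 1. The Itgav and Itgb7 windows lie inside the outer bounds of those genes, unlike the Itga4 and Itgam windows, which lie just before the gene. A match is a description of letters, not of binding.

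Itga4 was higher in BMDM than in microglia on both pairs of plates. It stood at 258 CPM (230 to 287) in BMDM without WBRT, 223 (204 to 242) in BMDM with WBRT, 29.7 (19.4 to 43.6) in microglia without WBRT and 55.5 (38.8 to 76.8) in microglia with WBRT. Both BMDM libraries lay above both microglia libraries, and their intervals did not overlap. The level in BMDM was 8.67-fold that in microglia without WBRT (5.81 to 13.5) and 4.01-fold with WBRT (2.86 to 5.79). In pooled counts, more wells carrying Itga4 and more Itga4 in each such well cannot be told apart, and the counts by well are given further on.

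**Figure D1:**
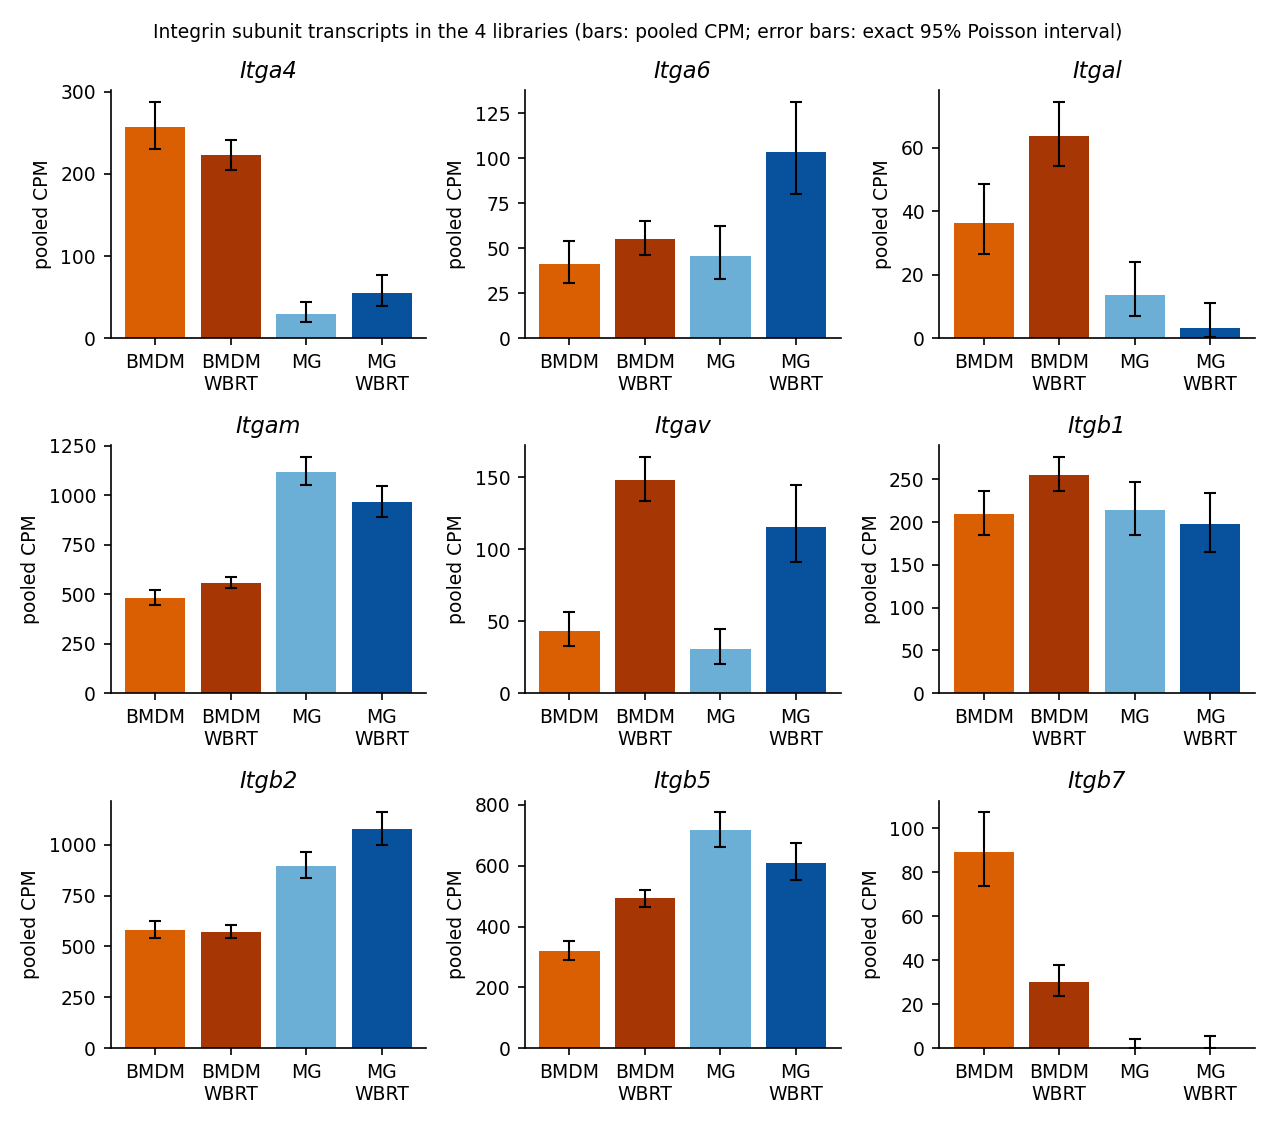
Pooled CPM (y axis, a separate scale for each gene) of the 9 integrin genes in the 4 libraries (x axis; MG, microglia), with exact 95% Poisson intervals as error bars. Itga4, Itgal and Itgb7 are higher in both BMDM libraries, Itgam, Itgb2 and Itgb5 are higher in both microglia libraries, and Itgav is higher in both WBRT libraries.

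Itgb7, the partner chain of α4 and αE, was counted in BMDM alone. It stood at 89.3 CPM (73.6 to 107) in BMDM without WBRT on 113 counts and at 30.2 CPM (23.8 to 37.9) in BMDM with WBRT, and it had no count in either microglia library. Against a floor of 3 counts in the microglia library, the level in BMDM was 26.0-fold higher without WBRT and 6.54-fold higher with WBRT. The exact lower limits of the ratios, taken with no microglia count, were 20.8 and 5.19. A UMI was found in 23.5% of BMDM wells without WBRT and 11.8% with WBRT, and in 0 of 157 and 0 of 151 microglia wells, with exact intervals that reach 2.32% and 2.41%.

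Itgal, the α chain of LFA-1, was also higher in BMDM on both pairs of plates. Its levels were 36.3, 63.7, 13.7 and 3.08 CPM, the last on 2 counts. The BMDM level was 2.65-fold that of microglia without WBRT (1.38 to 5.49) and 20.7-fold with WBRT (5.63 to 172).

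Itgam, its shared partner Itgb2 and Itgb5 had their higher levels in microglia. Itgam stood at 482, 558, 1118 and 965 CPM, so both microglia libraries lay above both BMDM libraries, and the BMDM level was 0.431 times that of microglia without WBRT (0.389 to 0.478) and 0.579 times with WBRT (0.526 to 0.637). Itgb2 stood at 582, 573, 897 and 1077 CPM, with BMDM at 0.648 times microglia (0.586 to 0.718) and 0.532 times (0.486 to 0.583). Itgb5 stood at 319, 492, 717 and 611 CPM, with BMDM at 0.445 times microglia without WBRT (0.392 to 0.505) and 0.806 times with WBRT (0.719 to 0.905). Itgb1, the partner shared by α4, α6 and αv, differed little between the sorts: its levels were 209, 255, 214 and 197 CPM, and the BMDM level was 0.979 times that of microglia without WBRT (0.809 to 1.19) and 1.29 times with WBRT (1.07 to 1.58). The β chain with which α4 forms VLA-4 therefore showed no gap of the size seen for Itga4.

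Counted against all genes, with a call at a log2 ratio of CPM + 5 of 1 or more in size among genes reaching 20 CPM in either library compared, 3 of 9 members were called higher in BMDM without WBRT (Itga4, Itgal, Itgb7), where 10.3% of 6591 genes were, and 2 of 9 lower (Itgam, Itgb5), where 6.81% were. With WBRT the same 3 were called higher, where 7.91% of 6774 genes were, and 0 of 9 lower, where 7.45% were. The median log2 ratio of the members was -0.03 without WBRT and 0.34 with WBRT, against 0.02 and 0.07 over all genes tested. Because the members were chosen with earlier results of these data known, such counts describe them and do not test them as a set.

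How far Itga4 tells a BMDM well from a microglia well was measured as the area under the curve, the chance that a BMDM well has the higher Itga4 CPM, with ties split evenly. The area was 0.726 without WBRT, rank 32 of 6591 genes from the top, and 0.757 with WBRT, rank 53 of 6774. The median over all genes was 0.504 without WBRT and 0.573 with WBRT, where BMDM wells were the deeper ones. The genes that separated the sorts best were those of MHC class II: H2-Eb1 gave 0.993 and H2-Aa 0.992 without WBRT, and H2-Aa gave 0.987 with WBRT. Among genes lower in BMDM, the chemokine gene Cxcl13 gave 0.0669 without WBRT and the matrix protein gene Sparc 0.126 with WBRT, where 0 would be a perfect separation. Of the other members, Itgam (0.218) and Itgb5 (0.237) without WBRT lay farther from 0.5 than Itga4, on the other side. With WBRT these were 0.414 and 0.482, below the median of 0.573 and at ranks 71 and 271 from the bottom of 6774 genes. Itgb2 gave 0.324 without WBRT and 0.402 with WBRT, rank 56 from the bottom with WBRT.

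**Figure D2:**
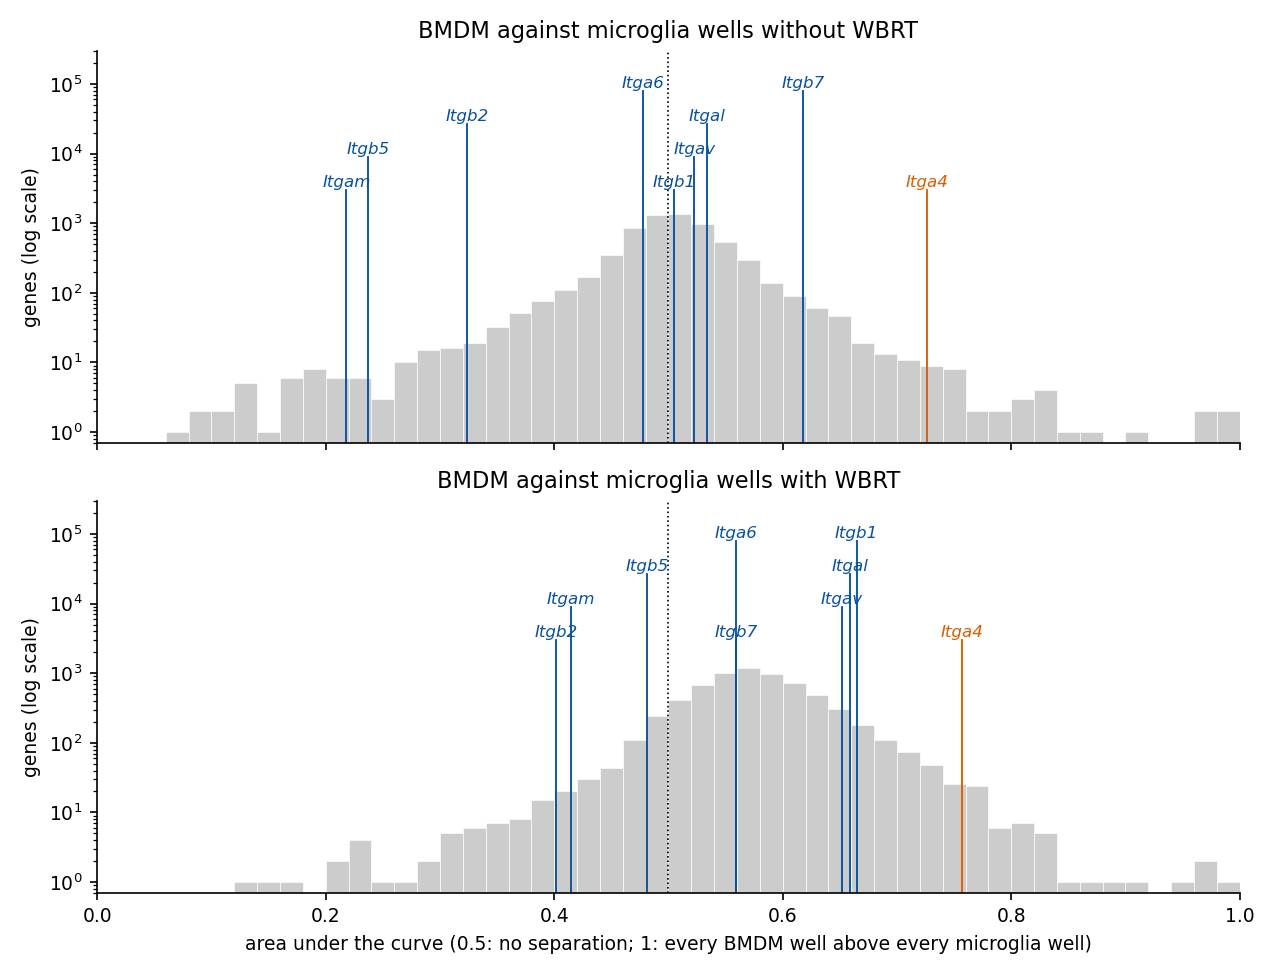
Area under the curve of every gene reaching 20 CPM in either library compared (x axis) against the number of genes in bins (y axis, log scale), for BMDM against microglia wells without WBRT (top) and with WBRT (bottom). Lines mark the 9 integrin genes; Itga4, in orange, lies at 0.726 and 0.757, in the upper tail of both distributions.

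Presence of a single Itga4 UMI marked 126 of 234 BMDM wells and 20 of 157 microglia wells without WBRT, which is 53.8% (47.2 to 60.4) against 12.7% (7.96 to 19.0). With WBRT it marked 170 of 262 and 23 of 151, 64.9% (58.8 to 70.7) against 15.2% (9.91 to 22.0). A positive well therefore came from a BMDM plate in 86.3% and 88.1% of cases. A rule that called every positive well BMDM and every other well microglia placed only 67.3% and 72.2% of wells right. It missed 108 and 92 BMDM wells, which had no Itga4 UMI. These shares depend on the mix of wells. Calling every well BMDM would be right for 234 wells and wrong for 157 without WBRT, and for 262 and 151 with WBRT. A limit of 2 UMIs left 74 BMDM and 3 microglia wells without WBRT, and 117 and 7 with WBRT. As a rule, this limit placed 58.3% and 63.2% of wells right. Among BMDM wells, 19 without WBRT and 37 with WBRT held 5 or more UMIs, against 1 and 0 microglia wells.

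Depth sets part of these shares. Thinned to 1000 UMIs a well, the shares with an Itga4 UMI were 22.6%, 17.9%, 1.27% and 5.96%, and the areas were 0.607 and 0.560. The microglia share without WBRT then rests on 2 wells. Within wells of 3000 to 10000 transcripts the share was 53.1% of 147 BMDM wells and 17.9% of 84 microglia wells without WBRT, and 59.5% of 121 and 30.8% of 52 with WBRT. The BMDM share was the higher one in each of the 3 depth ranges on both pairs of plates, although the binomial intervals of the deepest wells overlapped with WBRT (72.3% to 87.8% against 16.7% to 76.6%). If Itga4 transcripts were spread over wells by depth alone, 65.8% and 79.5% of BMDM wells would hold one, above the 53.8% and 64.9% found; in microglia the corresponding figures were 14.6% and 19.6% against 12.7% and 15.2%. In wells left out as nearly empty, with medians of 84 to 200.02 counts, Itga4 appeared in 1 of 150, 8 of 122, 1 of 227 and 3 of 233.

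**Figure D3:**
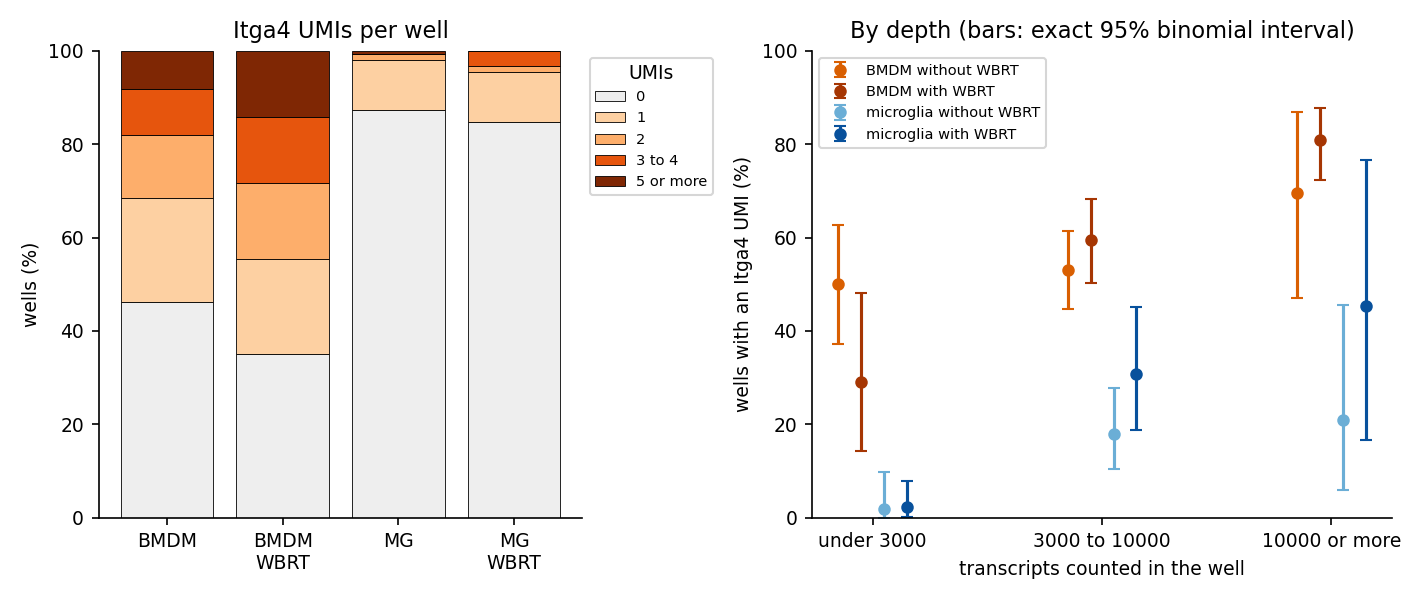
Left, the share of wells (y axis, %) by number of Itga4 UMIs in each library (x axis; MG, microglia). Right, the share of wells with an Itga4 UMI (y axis, %) by transcripts counted in the well (x axis), with exact 95% binomial intervals; at 3000 to 10000 transcripts the BMDM points lie at 53.1% and 59.5% and the microglia points at 17.9% and 30.8%.

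In the Itga4-positive wells of the microglia plates, summed microglia markers were 6626 CPM without WBRT and 9262 CPM with WBRT, against 8412 and 9467 CPM in the wells without an Itga4 UMI, and markers of blood-derived cells were 125 against 123 CPM and 469 against 384 CPM. These wells were deeper than the rest, with median transcripts of 6358 against 4458 and 7779 against 2383. In BMDM with WBRT, wells with Itga4 had microglia markers of 1710 CPM and those without had 3046 CPM.

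Clustering the wells of all plates without the integrin genes gave 10 clusters, of which 4 could be named from markers. Itga4 was far above the rest in a dendritic cell-like cluster led by Ccr7 and Ccl22, genes of mature migratory dendritic cells, at 1059 CPM (903 to 1235) with a UMI in 90.2% of its 41 wells, although its median well held only 3055 transcripts. Of these wells, 39 came from BMDM without WBRT, so cluster and plate are hard to separate. The cluster made up 10.2% of the transcripts of that plate and held 44.2% of its Itga4 counts. Pooled over plates, Itga4 stood between 197 and 265 CPM in the 5 other clusters made mostly of BMDM wells. They were led by Cd209a, by Clec4a1 with the monocyte receptor gene Ccr2, and by Mid1 with Kcnq1ot1. The others were led by Xcr1 with Clec9a (dendritic cell-like) and by Pf4 with F13a1 (border-associated macrophage-like). The pooled levels hide a split between plates in the Mid1 and Xcr1 clusters. In the Mid1 cluster, 42 BMDM wells without WBRT held 22.8% of their plate's transcripts and 10.7% of its Itga4 counts. The 5 BMDM wells with WBRT held 1.32% and 6.63%. In the Xcr1 cluster these shares were 19.97% and 12.6% in 35 wells without WBRT, and 2.75% and 4.47% in 6 with WBRT. Itga4 stood at 15.4 CPM (5.67 to 33.6) in the microglia-like cluster, which has few transcripts per well. It stood at 35.0 CPM in the cluster led by C4b, at 28.7 CPM in that led by Slc40a1 and at 65.6 CPM (46.9 to 89.4) in that led by Adamts1 and Tnf. Of the 10 microglia markers, 8 passed the doubling used for naming in the microglia-like cluster, 7 in the C4b cluster and 9 in the Adamts1 cluster. The C4b and Adamts1 clusters stay unnamed because no microglia marker was among their 10 leading genes. Microglia-marked wells are thus not confined to the cluster of that name.

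In the 2 clusters that drew at least 20 wells from both WBRT plates, the counts were too few to fix a direction of Itga4 between the sorts. In the cluster led by Adamts1 and Tnf the level was 48.9 CPM in 20 BMDM wells and 89.6 CPM in 32 microglia wells, a ratio of 0.546 (0.251 to 1.12). In the cluster led by Slc40a1 it was 49.0 CPM on 4 counts and 23.0 CPM on 3 counts, a ratio of 2.13 (0.360 to 14.5). Of the 20 Itga4-positive microglia wells without WBRT, 16 lay in the cluster led by C4b, which held 88 of the 157 wells. Of the 23 with WBRT, 14 lay in the cluster led by Adamts1 and Tnf, which held 32 of the 151. Few microglia wells lay in clusters made mostly of BMDM wells. Without WBRT, the 1 well each in the Clec4a1, Mid1 and Ccr7 clusters was positive, on 1, 5 and 1 counts. With WBRT, 2 wells in the Mid1 cluster and 1 in the Xcr1 cluster were positive. The 1 well each in the Cd209a and Clec4a1 clusters was not.

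The partner chains divided the BMDM clusters further. In the Ccr7 cluster, Itgb1 was at 500 CPM while Itgb7 was at 32.5, Itgam at 71.4, Itgb2 at 110 and Itgb5 at 26.0 CPM. Itgb7 was at 262 CPM in the Cd209a cluster and 233 CPM in the Xcr1 cluster, and at 17.7 CPM or less in every cluster other than these and the Ccr7 cluster. Of the Itgb7 counts of BMDM without WBRT, 52.2% lay in the Xcr1 cluster and 31.9% in the Cd209a cluster. The Xcr1 cluster also had Itgae, the αE chain that pairs with β7 only, at 389 CPM, and Itgam at 79.5 CPM beside Itgb2 at 766 CPM. Over all kept wells of BMDM without WBRT, an Itgb7 UMI was present in 57.5% of the 40 wells with Itgae and in 16.5% of the 194 without, with median transcripts of 6932 and 3939. For Itga4 and Itgb1 the same shares were 61.9% of 126 and 47.2% of 108, with medians of 4649 and 3981.

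**Figure D4:**
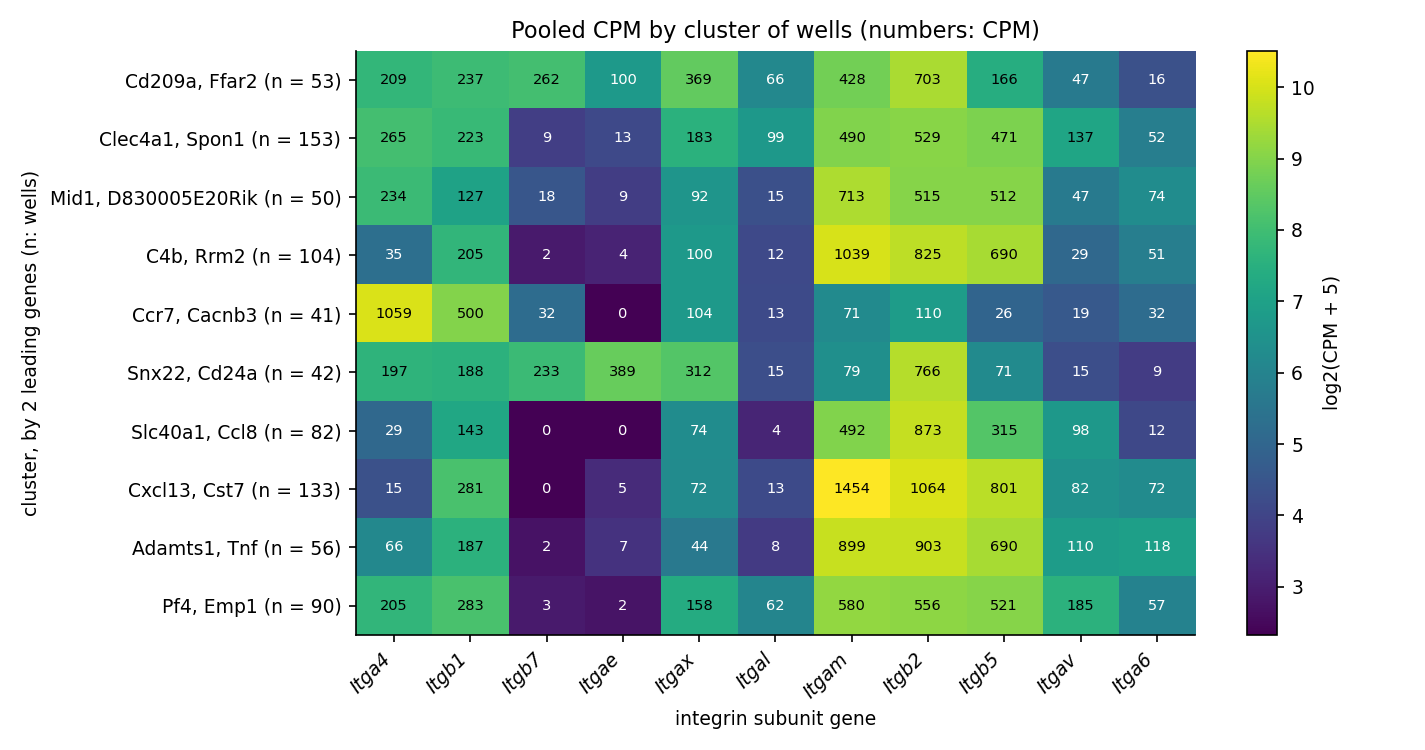
Pooled CPM of 11 integrin genes (x axis) in the 10 clusters of wells (y axis, named by 2 leading genes), with log2(CPM + 5) as colour and CPM as the printed number. The Ccr7 cluster has the highest Itga4 (1059 CPM) and Itgb1 and the lowest Itgam (71.4 CPM) and Itgb2, and Itgb7 is above 200 CPM in the clusters led by Cd209a and by Snx22 with Xcr1 and Clec9a.

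Leaving out the dendritic cell-like wells lowered the Itga4 difference between the sorts to 5.53-fold without WBRT (3.60 to 8.84) and to 3.84-fold with WBRT (2.72 to 5.57). The same step moved Itgam to 0.595 times microglia (0.536 to 0.659) and Itgb5 to 0.602 times (0.529 to 0.684) without WBRT, and neither was called any longer, which leaves 3 of 9 members called higher, where 8.36% of 6533 genes were in these wells, and 0 lower, where 5.71% were. Itgb7 was then at 56.6 CPM in BMDM against no count in microglia without WBRT. That is 16.3-fold higher against the floor, with an exact lower limit of 12.8. Leaving out the clusters with little Malat1, a nuclear RNA, took the Itga4 difference with WBRT to 2.61-fold and its area to 0.664.

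The WBRT comparison within each sort was led by Itgav, whose αv chain also activates latent TGF-β. It stood at 43.4 CPM (32.7 to 56.6) in BMDM without WBRT and 148 CPM (133 to 164) with WBRT, and at 30.9 CPM (20.3 to 44.9) in microglia without WBRT and 116 CPM (90.9 to 145) with WBRT. Both WBRT libraries lay above both others, at 3.41-fold in BMDM (2.56 to 4.61) and 3.74-fold in microglia (2.38 to 6.05). Within the microglia-like cluster, which drew 61 wells from each microglia plate, the ratio was 3.01 (1.25 to 8.31) on 23.0 against 7 counts. In the cluster led by Clec4a1 and Ccr2 it was 1.60 (0.994 to 2.68) in BMDM wells, and without the dendritic cell-like clusters the BMDM ratio was 2.70 (2.01 to 3.71). In microglia wells without a UMI of an astrocyte marker, 103 with WBRT and 114 without at median transcripts of 2334 and 3702, the Itgav ratio was 3.32 (1.83 to 6.27). The highest cluster level of Itgav, 185 CPM, was in the Pf4 cluster, which drew 88 of its 90 wells from BMDM with WBRT.

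Itgb7 was lower on the BMDM plate with WBRT, at 0.339 times the level without (0.25 to 0.457). Within the Cd209a cluster the levels were 268 CPM in 22 wells with WBRT and 258 CPM in 30 wells without, a ratio of 1.04 (0.662 to 1.65). The Xcr1 cluster held 35 wells of the plate without WBRT and 6 of the plate with WBRT. Without the dendritic cell-like clusters the Itgb7 ratio over the BMDM plates was 0.401 (0.268 to 0.600), still called lower. Itga4 itself was at 0.864 times on the BMDM plate with WBRT (0.752 to 0.993), at 0.959 times within the Clec4a1 cluster (0.715 to 1.30), and at 1.33 times once dendritic cell-like wells were left out (1.10 to 1.62). With at least 3000 counts per well the ratio was 1.08, and after thinning it was 0.592, so its direction differed between these settings. In microglia Itga4 was at 1.87 times (1.10 to 3.22) on 36 against 26 counts, and at 1.63 times (0.850 to 3.15) in wells without an astrocyte marker UMI. Of the 36 counts with WBRT, 26 lay in the Adamts1 cluster, which held 32 microglia wells with WBRT and 0 without.

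Of the remaining members, Itga6 was at 41.1, 54.9, 45.7 and 103 CPM, which is 2.26-fold in microglia with WBRT (1.5 to 3.43). A single well held 28.4% of its counts there, and without the top well of each library the ratio was 1.73. In microglia wells without an astrocyte marker UMI it was 2.97 (1.76 to 5.14). Itgal was at 1.75 times in BMDM with WBRT (1.26 to 2.49) and at 0.693 times within the Clec4a1 cluster (0.442 to 1.11), and over all BMDM wells its ratio was 3.08 with at least 3000 counts per well and 0.916 with every well weighted alike. Itgb1 was at 1.22 times in BMDM with WBRT (1.05 to 1.41) and 0.922 times in microglia (0.731 to 1.16), or 1.24 times (0.888 to 1.72) in wells without an astrocyte marker UMI. Counted as above, 1 of 9 members was called higher with WBRT in BMDM (Itgav), where 5.16% of 6551 genes were, and 1 of 9 lower (Itgb7), where 6.14% were. In microglia 2 of 7 tested members were called higher (Itga6 and Itgav), where 9.36% of 6723 genes were, and 0 of 7 lower, where 7.56% were.

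Other genes of integrin biology were counted by the same rule, and their counts are to be read against the shares of all genes called: 10.3% higher and 6.81% lower between the sorts without WBRT, 7.91% and 7.45% with WBRT, 5.16% and 6.14% for WBRT in BMDM, and 9.36% and 7.56% for WBRT in microglia. The lists are short, so 1 gene moves a share by much. Of 14 other integrin subunits with a row, 4 were tested between the sorts without WBRT, with 1 called higher in BMDM (Itgae, 94.8 CPM against 3 counts, a ratio of 27.6, 9.24 to 136, and of 7.19, 2.16 to 37.5, without the dendritic cell-like clusters) and 1 lower (Itgb3, the β chain of the vitronectin receptor, 5.53 against 57.2 CPM). With WBRT 5 were tested, with Itga9, an α chain that pairs with β1, at 117 against 16.9 CPM and Itgax, the CD11c chain, at 171 against 54.0 CPM called higher, and Itgb3 called lower. For WBRT in BMDM 4 were tested, with Itga9 called higher and Itgae called lower. Itgae was at 23.9 CPM with WBRT, a ratio of 0.252 (0.182 to 0.346), and at 0.431 times (0.235 to 0.797) and not called without the dendritic cell-like clusters. Itga9 was at 11.1 CPM in BMDM without WBRT, a ratio of 10.5 with WBRT over none (6.18 to 19.5), and within the Clec4a1 cluster the ratio was 3.68 (1.99 to 7.56). In microglia with WBRT, 1 of 3 was called higher, the fibronectin receptor chain Itga5 at 3.20 times (1.74 to 6.15), and 1 lower, Itgb3 at 0.404 times (0.211 to 0.731). The Itga5 ratio was 5.01 (2.21 to 12.8) in wells without an astrocyte marker UMI, and within the microglia-like cluster it rested on 3 against 2 counts. Levels of Itga9 were 150 CPM in the Clec4a1 cluster and 135 CPM in the Pf4 cluster and 20.6 CPM or less in the other 8.

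Among 23 measured genes of integrin activation and adaptors, 18 were tested between the sorts without WBRT, with 3 called higher in BMDM and 1 lower. Actn1, an actin cross-linker at adhesions, was at 172 against 16.0 CPM, and the integrin-associated receptor gene Cd47 at 420 against 117 CPM. Both were highest in the Ccr7 cluster, at 845 and 1046 CPM, and without the dendritic cell-like clusters the ratios were 2.59 (1.37 to 5.19) and 2.56 (2.02 to 3.26). The talin gene Tln2 was the 1 called lower, at 20.5 against 56.0 CPM, and was not called without the dendritic cell-like clusters, at 0.520 times (0.310 to 0.854). With WBRT, 19 were tested, with 3 called higher and 2 lower. Of these adaptors, 1 of 19 was called higher and 1 lower with WBRT in BMDM, Parvb at 2.76 times (1.72 to 4.63) and Actn1 at 0.146 times (0.109 to 0.194). Without the dendritic cell-like clusters these were 1.98 (1.23 to 3.32) and 0.561 (0.365 to 0.873), and neither was called. In microglia 1 of 18 was called higher and 0 lower, Parvb at 2.70 times (1.30 to 5.91). Within the microglia-like cluster the Parvb ratio was 0.916 (0.171 to 4.92) on 4 against 4 counts, and in wells without an astrocyte marker UMI it was 1.70 (0.538 to 5.49) and was not called.

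The ligands of these integrins were also counted in the same wells. Of 12 measured ligand genes, 8 were tested between the sorts without WBRT and 8 with WBRT, with 2 and 3 called higher in BMDM and 2 and 2 lower. Of the 2 lower without WBRT, C3 was not called without the dendritic cell-like clusters, at 0.497 times. Fn1, fibronectin, a ligand of α4β1, stood at 191, 721, 52.6 and 280 CPM, higher on both WBRT plates at 3.76-fold in BMDM (3.29 to 4.32) and 5.32-fold in microglia (3.83 to 7.52). Within the microglia-like cluster the Fn1 ratio was 15.5 (7.66 to 36.7) and within the Clec4a1 cluster 1.99 (1.61 to 2.49), and in microglia wells without an astrocyte marker UMI it was 10.5 (6.39 to 18.3). Vcam1, the other main ligand of α4β1, stood at 19.8, 88.1, 27.4 and 9.24 CPM, 4.46-fold with WBRT in BMDM (2.94 to 7.03) and 0.337 times in microglia (0.113 to 0.846). Icam1, the ligand of the β2 integrins, was lower in BMDM, at 124, 147, 297 and 443 CPM. For Thbs1, also on the ligand list, ratios are given without the dendritic cell-like clusters. BMDM over microglia was 3.12-fold without WBRT (1.91 to 5.29). With WBRT it was 23.4-fold (9.97 to 72.5), on 5 microglia counts. With WBRT over none, Thbs1 was at 2.34 times in BMDM (1.82 to 3.06) and 0.312 times in microglia (0.0923 to 0.844). With WBRT, 3 of 7 ligand genes tested were called higher in BMDM and 0 lower, and in microglia 1 of 8 was higher and 3 lower.

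Over the 4 libraries, the genes whose profile lay closest to that of Itga4 among 4049 candidates, by Euclidean distance of centred log2(CPM + 5), were Gsn (0.276), Plscr1 (0.412), Pim1 (0.423), Ext1 (0.480) and Lilrb3 (0.513). Gsn, an actin-severing protein gene, stood at 207, 236, 27.4 and 50.9 CPM. The profiles rest on 4 values that share the sort difference.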

How the data were processed

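Transcripts were counted in sorted myeloid cells on 4 plates of 384 wells. Per the labels' protocols, a provider processed the plates with a method using well barcodes and UMIs, and per the submitters' processing notes the build is GRCm38. Not given in the sources used here: aligner, counter and annotation. The authors' deposited values are estimated counts per gene and well, and all nonzero values (100%) matched, within 0.0051, a correction for coinciding UMIs of 4096 identifiers.

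Wells with at least 1000 counts outside ERCC and mitochondrial rows and an ERCC share under 50% were kept. Counts were summed per library and divided by all counts outside ERCC. A count of 3 equals 2.37, 1.19, 3.43 and 4.62 CPM and is the floor for genes at 0. CPM have exact Poisson intervals, ratios exact conditional intervals and shares exact (Clopper-Pearson) binomial intervals. Of these, the ratio intervals were checked on simulated counts drawn independently. The intervals assume such draws, so the check does not cover dependence between transcripts of 1 well. The intervals of CPM and of shares were not checked this way. No test was made.

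Wells were clustered with scanpy 1.11.5 without integrin subunit genes. Naming a cluster took at least 3 markers of a type with a doubled CPM + 5 against other wells, and more markers of that type than of any other among its 10 leading genes. No doublet caller was run, since single cells were sorted into wells per the labels. No 2 kept wells held identical values. All members are named, with some genes of each list that had large log2 ratios, but not every gene called. The 5 genes nearest Itga4 and genes with the highest and lowest areas are named too. Members and lists were chosen with earlier results of these data known.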

Additional observations from a re-analysis of the deposited data

Results flagged for a closer look

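Itga4 was lower with WBRT in BMDM, at 0.864 times, and higher in microglia, at 1.87 times. Itgam was higher in BMDM, at 1.16 times, and lower in microglia, at 0.863 times. Itgb5 was likewise higher in BMDM, at 1.54 times, and lower in microglia, at 0.851 times. Each drew attention because the ratios lie on opposite sides of 1 with counting intervals that exclude it, and with 1 library per group the difference between the sorts was not tested. Without the dendritic cell-like clusters, a step chosen after seeing the data, the BMDM ratios were 1.33 for Itga4, 0.857 for Itgam and 1.17 for Itgb5, so Itga4 and Itgam changed direction. The part of plate makeup in these values was not tested.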

How the results depend on the processing

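No paired analysis was possible because each group is 1 plate and the labels give no replicate numbers. Of 393 member ratios recomputed under the alternatives, 345 stayed within the counting interval and 48 left it, 16 of them after thinning to 1000 UMIs, 12 with every well weighted alike and 0 with TMM factors. Alternatives that leave out clusters or wells with an astrocyte marker UMI were chosen after seeing the data. The count of members past a doubling went from 5 to 3 between the sorts without WBRT, both at a minimum of 100 CPM and without dendritic cell-like clusters. It went from 3 to 1 with WBRT at 100 CPM and to 5 with at least 3000 counts per well, where Itga6 and Itgb2 were lower too. In BMDM with WBRT over none it went from 2 to 1 at 100 CPM. In microglia it went from 2 to 1 with a pseudocount of 20, with every well weighted alike and without the top well of each gene, Itgav remaining each time. The area for Itga4 was 0.607 without WBRT and 0.560 with WBRT after thinning, and 0.664 with WBRT without low-Malat1 clusters (a median Malat1 under 1000 CPM). The Itga4 ratio in BMDM with WBRT over none ranged from 0.592 after thinning to 1.33 without dendritic cell-like clusters, and was 1.08 with at least 3000 counts per well and 0.707 without the cluster led by Mid1 and Kcnq1ot1. After thinning, the Itga4 ratio between the sorts without WBRT was 25.8 on 2 microglia wells and the WBRT ratio in microglia 5.20. The cause of these changes was not tested. The highest cluster level of Itga4 was 1170 and 1114 CPM at clustering resolutions of 0.5 and 1.5. Depth limits microglia with WBRT most, where a count of 3 is 4.62 CPM.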
